A study of Micropterus salmoides with 18 samples.

Results

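The 6 genes described here are the corticosteroid receptors nr3c1 and nr3c2 and the corticosteroid response genes fkbp5, ddit4, klf9 and dusp1. They were found by name among the 43106 entries of a gonad expression table of Micropterus salmoides, the largemouth bass, a farmed freshwater fish. They were chosen from their FPKM levels in these libraries and from their differences between heated gonads and both unheated groups. Since those values involve every library, all differences of the 6 genes are given as descriptions with their SE and without a test, and tests are given only for other genes. The study asked what lasting heat outside the breeding season does to this fish. Males and females were held in separate tanks, and gonads were taken at the start (prefix IC, day 0), after 28 days at 20 °C (NC) or after 28 days at 28 °C (HT). No strain or age is given in the labels. The letters F and M give 6 labelled groups of 3 libraries, 18 in all.

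The letters did not follow the gonad genes. Oocyte markers, 12 of them measured, summed to 8941 to 11280 FPKM (fragments per kilobase of gene, scaled to the library) in the 9 libraries whose labels are HT-M, IC-M or NC-F, and to 106.3 to 392.5 FPKM in the 9 with HT-F, IC-F or NC-M. Sperm and flagellum markers, 27 of them measured, summed to 53.8 to 68.2 FPKM in the first set and to 1493 to 5540 FPKM in the second. The first set is called ovary-type below and the second testis-type, and each group keeps its label. Libraries held 15152 to 21638 genes at 1 FPKM or more. Log2 values correlated at 0.935 to 0.989 across genes within 5 groups and at 0.85 to 0.925 within NC-M.

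Cortisol, the main glucocorticoid of bony fish, comes from the interrenal tissue and acts in target cells through the glucocorticoid receptor (nr3c1) and the mineralocorticoid receptor (nr3c2). Without hormone these receptors sit in a complex with heat shock protein 90 and its helpers, and with hormone they enter the nucleus and change transcription. In mammals fkbp5, ddit4, klf9 and dusp1 are among the genes that glucocorticoids induce most widely, and each also answers other signals, such as hypoxia for ddit4, thyroid hormone for klf9 and mitogen or stress signals for dusp1.

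Transcripts of the glucocorticoid receptor gene nr3c1 separated the gonad types and differed little between conditions within a type. A further glucocorticoid receptor gene, if this fish has one, was not identified by name and is not covered here. In ovary-type libraries nr3c1 stood at 0.17, 0.33 and 0.30 FPKM in IC-M, at 0.32, 0.31 and 0.32 in NC-F and at 0.56, 0.53 and 0.31 in HT-M. In testis-type libraries it stood at 3.1, 3.2 and 3.06 FPKM in IC-F, at 2.55, 3.13 and 2.96 in NC-M and at 3.46, 3.59 and 3.45 in HT-F. Every testis-type library was above every ovary-type library, and the 3 ovary-type groups overlapped one another. HT-F was the highest group, just above and clear of the other testis-type groups, which overlapped each other.

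On the log2(FPKM + 1) scale the testis-type excess of nr3c1 was of similar size at all 3 conditions. The log2 difference was 1.70 ± 0.117 (SE) at day 0, 1.56 ± 0.117 after 28 days at 20 °C and 1.62 ± 0.117 at 28 °C. The gene reached 1 FPKM in 9 testis-type and 0 ovary-type libraries, so it entered this fit only through the libraries where it was high. At day 0 the mean was 3.12 ± 0.0721 FPKM in IC-F against 0.267 ± 0.085 in IC-M (SD, n = 3 each), a ratio of 11.7. The ratio of means was lower after 28 days, at 9.09 at 20 °C and 7.5 at 28 °C. With 0.1 in place of 1 added to FPKM the log2 differences were 3.16, 2.83 and 2.70 in that order. Gaps between the types were common: 49.3% of the 25184 genes tested with limma were called higher (adjusted p under 0.05) and 28.6% lower in testis-type libraries at day 0, and the median gene was higher by 0.57. After 28 days at 20 °C the shares were 48.9% and 27.9%, and at 28 °C they were 47.7% and 26.3%. In bulk tissue a change in the number of cells of a type and a change in RNA per cell cannot be told apart.

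Within the testis-type libraries nr3c1 differed by 0.22 ± 0.136 on the log2 scale between HT-F and NC-M and by 0.13 ± 0.136 between HT-F and IC-F. The second of these becomes -0.003 when libraries are scaled by the median of ratios. Between NC-M and IC-F the difference was -0.09 ± 0.136. In the ovary-type libraries nr3c1 lay below the filter of 1 FPKM in 3 libraries and was not fitted.

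The mineralocorticoid receptor was near the lower end of detection in all groups. In ovary-type libraries nr3c2 stood at 0.16, 0.20 and 0.17 FPKM in IC-M, at 0.22, 0.23 and 0.18 in NC-F and at 0.22, 0.20 and 0.21 in HT-M. Testis-type levels were 0.35, 0.34 and 0.31 FPKM in IC-F, 0.50, 0.51 and 0.18 in NC-M and 0.18, 0.19 and 0.26 in HT-F. IC-F and 2 of the 3 NC-M libraries were the highest of all, while NC-M 3 was as low as HT-F. It never passed the filter. The testis-type mean exceeded the ovary-type mean by 0.18 on the log2(FPKM + 1) scale at day 0 and by 0.20 after 28 days at 20 °C. At 28 °C the difference was -0.0006. The ratios of mean FPKM were 1.89, 1.89 and 1 in that order.

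**Figure D1:**
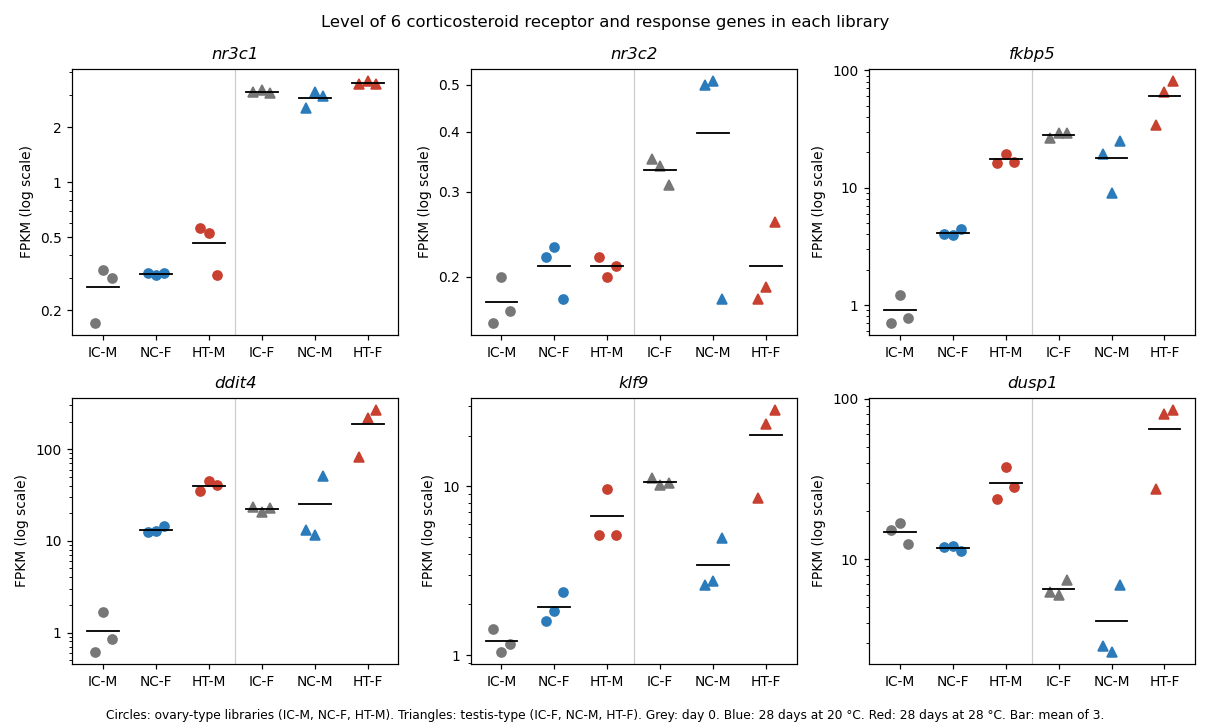
FPKM (log scale) of the 2 receptors and the 4 response genes in each of the 18 libraries. Circles are ovary-type and triangles testis-type libraries, colour gives the condition and the bar is the mean of 3 libraries. Both receptors stay below 4 FPKM, nr3c1 splits the gonad types, and the 4 response genes are highest in HT-F.

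The response gene fkbp5 encodes an immunophilin that joins the receptor complex and lowers the hormone affinity of the glucocorticoid receptor in mammals. In ovary-type libraries it stood at 0.70, 1.22 and 0.78 FPKM in IC-M, at 4.02, 3.91 and 4.48 in NC-F and at 16.15, 19.37 and 16.54 in HT-M. The 3 groups did not overlap, and the order ran from day 0 through 20 °C to 28 °C. Testis-type levels were 26.31, 29.08 and 29.44 FPKM in IC-F, 19.32, 9.02 and 25.16 in NC-M and 34.32, 65.15 and 81.32 in HT-F. NC-M was the lowest of these groups, and HT-F lay above both others. Over the 6 groups the order was HT-F, IC-F, NC-M, HT-M, NC-F and IC-M, and only NC-M and HT-M overlapped as neighbours.

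For fkbp5 the heated ovary-type mean was 17.4 ± 1.76 FPKM (SD, n = 3) in HT-M against 4.14 ± 0.302 in NC-F, a log2 difference of 1.84 ± 0.135 (SE) and a ratio of 4.2. The heated testis-type mean was 60.3 ± 23.9 FPKM in HT-F against 17.8 ± 8.17 in NC-M, a log2 difference of 1.73 ± 0.399 and a ratio of 3.38. Against day 0 the log2 difference was 3.28 ± 0.135 in HT-M and 0.98 ± 0.399 in HT-F. The ratios to day 0 were 19.3 and 2.13.

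The day-0 levels of fkbp5 lay far apart between the gonad types. IC-F exceeded IC-M by 3.95 ± 0.31 (SE) on the log2 scale, a ratio of 31.4. The excess of the testis-type group was 1.77 ± 0.31 at 20 °C and 1.66 ± 0.31 at 28 °C.

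The gene ddit4 (REDD1) encodes an inhibitor of the growth kinase complex mTORC1. In ovary-type libraries it stood at 0.61, 1.68 and 0.85 FPKM in IC-M, at 12.58, 12.73 and 14.53 in NC-F and at 34.73, 44.46 and 40.86 in HT-M. Like fkbp5 it had no overlap between these 3 groups. Testis-type levels were 23.48, 20.77 and 22.64 FPKM in IC-F, 13.19, 11.63 and 51.53 in NC-M and 81.58, 217.83 and 269.33 in HT-F. NC-M 3 was far above the other 2 NC-M libraries, and IC-F lay inside the NC-M range. Every HT-F library exceeded every other library of the study, while HT-M, NC-M and IC-F overlapped as neighbours in the order.

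In heated gonads ddit4 averaged 40.0 ± 4.92 FPKM in HT-M against 13.3 ± 1.09 in NC-F (SD, n = 3), a log2 difference of 1.52 ± 0.187 (SE) and a ratio of 3.01. It averaged 189.6 ± 97 FPKM in HT-F against 25.5 ± 22.6 in NC-M, a log2 difference of 3.01 ± 0.596 and a ratio of 7.45. Against day 0 the log2 differences were 4.35 ± 0.187 in HT-M and 2.87 ± 0.596 in HT-F, with ratios of 38.2 and 8.5. Testis-type exceeded ovary-type ddit4 by 3.54 at day 0 and by 2.06 at 28 °C. At 20 °C the difference was 0.57, and it was -0.090 without NC-M 3.

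The gene klf9 encodes a Kruppel-like zinc finger transcription factor that binds GC-rich promoters. In ovary-type libraries it stood at 1.43, 1.04 and 1.16 FPKM in IC-M, at 1.59, 1.82 and 2.36 in NC-F and at 5.13, 9.69 and 5.15 in HT-M. The groups did not overlap, although IC-M and NC-F lay close together and HT-M 2 stood above the other heated libraries. Testis-type levels were 11.17, 10.24 and 10.53 FPKM in IC-F, 2.60, 2.76 and 4.92 in NC-M and 8.49, 23.33 and 28.45 in HT-F. HT-F 1 fell below all IC-F libraries, so HT-F and IC-F overlapped, and NC-M was below both.

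The log2 difference of klf9 was 1.35 ± 0.225 (SE) between HT-M and NC-F, with means of 6.66 ± 2.63 and 1.92 ± 0.395 FPKM (SD, n = 3) and a ratio of 3.46. It was 2.14 ± 0.402 between HT-F and NC-M, with means of 20.1 ± 10.4 and 3.43 ± 1.3 FPKM and a ratio of 5.86. Against day 0 it was 1.75 ± 0.225 in HT-M and 0.70 ± 0.402 in HT-F. Without HT-F 1 the last value was 1.2, and without HT-F 3 it was 0.38. Testis-type klf9 exceeded ovary-type klf9 by 2.40 at day 0, a ratio of 8.8, by 0.57 at 20 °C and by 1.36 at 28 °C.

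The gene dusp1 encodes a nuclear phosphatase that switches off MAP kinases. In ovary-type libraries it stood at 15.12, 16.74 and 12.41 FPKM in IC-M, at 11.95, 12.06 and 11.20 in NC-F and at 23.86, 37.70 and 28.16 in HT-M. NC-F was the lowest of these groups and HT-M the highest, with no overlap. Testis-type levels were 6.22, 5.93 and 7.43 FPKM in IC-F, 2.85, 2.62 and 6.87 in NC-M and 27.42, 80.52 and 85.59 in HT-F. IC-F and NC-M overlapped at the bottom of the order, and HT-F and HT-M overlapped at the top.

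The level of dusp1 averaged 29.9 ± 7.08 FPKM in HT-M against 11.7 ± 0.468 in NC-F (SD, n = 3), a log2 difference of 1.26 ± 0.168 (SE) and a ratio of 2.55. In HT-F it averaged 64.5 ± 32.2 FPKM against 4.11 ± 2.39 in NC-M, a log2 difference of 3.61 ± 0.458 and a ratio of 15.7. Against day 0 the log2 difference was 0.96 ± 0.168 in HT-M and 2.97 ± 0.458 in HT-F.

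Unlike the other 3 response genes, dusp1 was lower in testis-type than in ovary-type libraries at day 0 and after 28 days at 20 °C. The log2 difference was -1.06 ± 0.361 (SE) at day 0 and -1.41 ± 0.361 after 28 days at 20 °C. At 28 °C it was 0.95 ± 0.361 in the other direction, with overlapping groups, and 0.59 with median-of-ratios scaling.

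**Figure D2:**
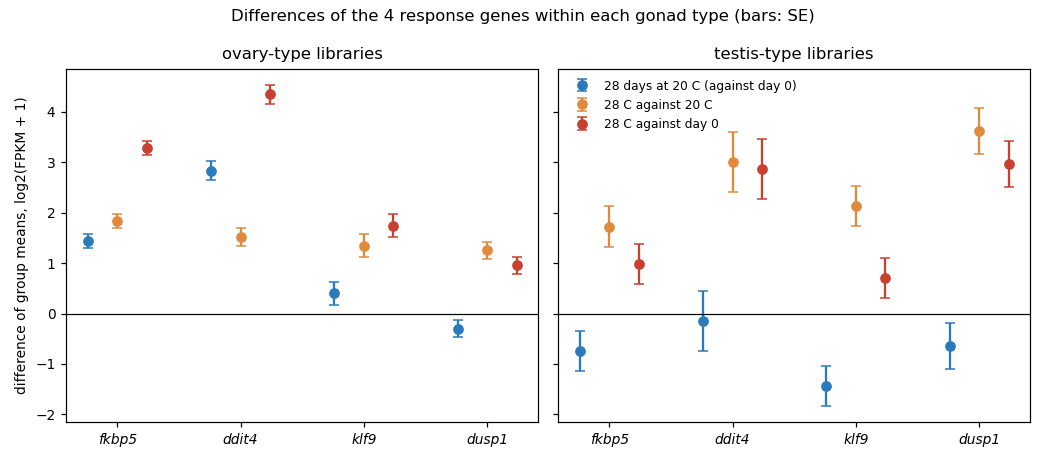
Difference of group means on the log2(FPKM + 1) scale, with its SE, for the 4 response genes in ovary-type (left) and testis-type (right) libraries. Blue is 28 days at 20 °C against day 0, orange 28 °C against 20 °C and red 28 °C against day 0. The blue points of fkbp5 and ddit4 are at 1.44 and 2.83 on the left and at -0.74 and -0.14 on the right.

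All 4 response genes thus had heated libraries clear of the 20 °C libraries in both gonad types, with the heated group higher. In HT-M against NC-F, 28.7% of the 17026 genes tested were called higher and 20.0% lower. In HT-F against NC-M these shares were 6.17% and 4.50% of 22791. Against day 0 they were 16.1% and 8.44% for HT-M and 14.8% and 9.04% for HT-F. These comparisons chose the genes, and the shares count calls rather than lack of overlap, so nothing is read from the count of 4. Of the 6 genes, 4 passed the filter in the ovary-type fit and 5 in the testis-type fit and the fit of all 18 libraries.

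Day 0 and 28 days at 20 °C were also set side by side within each gonad type. In ovary-type libraries fkbp5 was higher in NC-F than in IC-M by 1.44 ± 0.135 (SE) on the log2 scale and ddit4 by 2.83 ± 0.187. For klf9 the difference was 0.40 ± 0.225 and for dusp1 -0.30 ± 0.168. All 4 genes had no overlap between these groups, 3 of them with NC-F higher. The share of all genes without overlap was not counted, so nothing is read from this count. Over all genes tested 11.9% were called higher and 13.6% lower, which is a different measure. Granulosa and theca markers summed to 58.4 to 71.0 FPKM in IC-M and 79.4 to 116.1 in NC-F, with 5 of 10 tested called higher and 1 lower. Endothelium sums were 15.5 to 21.9 and 22.7 to 26.9 FPKM, but with 1 of 7 called higher, near the share over all genes. Macrophage and myeloid markers had 4 of 7 called higher, with sums that overlapped. The part of these cells in the levels was not tested.

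In testis-type libraries klf9 was lower after the same 28 days, at 3.43 ± 1.3 FPKM in NC-M against 10.7 ± 0.476 in IC-F (SD, n = 3), a log2 difference of -1.43 ± 0.402 (SE). The differences were -0.74 ± 0.399 for fkbp5, -0.14 ± 0.596 for ddit4 and -0.65 ± 0.458 for dusp1. Over all genes tested 16.4% were called higher and 18.1% lower in NC-M against IC-F. Sperm and flagellum markers were lower with them: 21 of 26 tested were called lower, with a median log2 difference of -2.03, and their sums were 5386 to 5540 FPKM in IC-F and 1493 to 2800 in NC-M. Granulosa and theca markers had 5 of 8 called higher, with sums of 171.8 to 182.1 and 244.7 to 474.1 FPKM. That list shares amh, gata4, cyp17a1 and inhbaa with the Sertoli and Leydig list. Sertoli and Leydig markers had 1 of 8 called higher, with sums of 167.1 to 172.8 and 223.0 to 242.9 FPKM. Most of the 5 granulosa and theca calls thus lay outside the shared genes, and which cells they come from was not tested. The part of germ and somatic cells in the levels of the 6 genes was not tested.

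The testis-type change over 28 days at 20 °C less the ovary-type change was -2.19 ± 0.438 (SE) for fkbp5, -2.97 ± 0.659 for ddit4 and -1.83 ± 0.482 for klf9. It was -0.35 ± 0.511 for dusp1 and -0.15 ± 0.166 for nr3c1. Over all genes tested, 16.7% were called with a higher and 18.7% with a lower change in testis-type libraries.

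The letters also allow a same-letter reading of the 20 °C period, which mixes the gonad types. By that reading mean fkbp5 went from 28.3 FPKM in IC-F to 4.14 in NC-F and from 0.9 in IC-M to 17.8 in NC-M, and nr3c1 moved with it, from 3.12 to 0.317 and from 0.267 to 2.88. The labels do not say which letters are wrong.

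Within HT-F, HT-M and NC-M the 4 response genes tended to be high or low in the same library. In IC-M, NC-F and IC-F no library was the lowest or the highest for all 4. In HT-F, library 1 was the lowest and library 3 the highest for all 4 genes, and in HT-M, library 1 was the lowest and library 2 the highest for all 4. NC-M 3 was the highest of its group for each of them. The deviation of HT-F 1 from its group mean lay between -1.04 for ddit4 and -0.71 for fkbp5, and NC-M 3 lay 1.31 above its group for ddit4 and 0.46 above for klf9. The receptor nr3c1 did not share this spread, at -0.01 in HT-F 1 and 0.03 in NC-M 3.

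**Figure D3:**
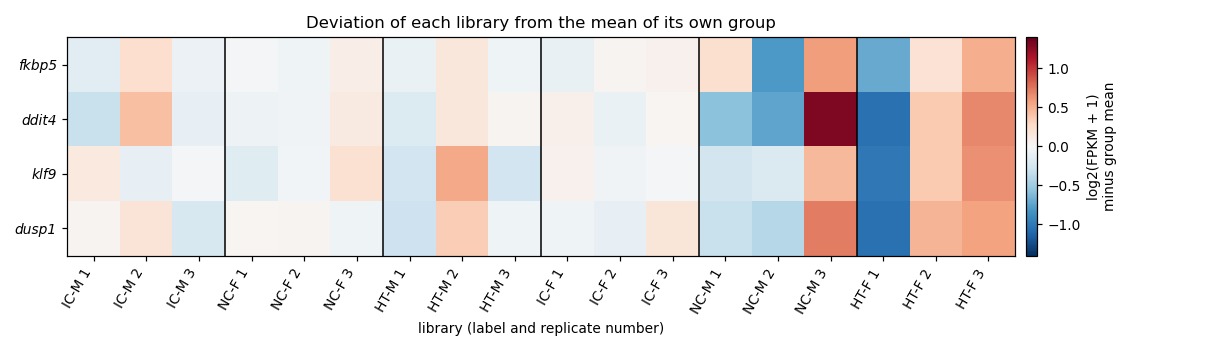
Deviation of each library from the mean of its own group on the log2(FPKM + 1) scale for the 4 response genes, blue for lower and red for higher. HT-F 1 is blue for all 4 genes, from -1.04 to -0.71, and NC-M 3 is red for all 4, with 1.31 for ddit4 as the highest.

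HT-F 1 and NC-M 3 lay towards each other, low in the heated group and high in the 20 °C group. Without both the log2 difference between HT-F and NC-M was 2.37 for fkbp5, 4.18 for ddit4, 2.86 for klf9 and 4.49 for dusp1. NC-M 3 also stood apart in other respects. Its mitochondrial share of FPKM was 17.9%, against 12.8% and 12.9% in the other NC-M libraries, and its sperm and flagellum markers summed to 2800 FPKM against 1509 and 1493. The part of these features in the levels was not tested.

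Across the 18 libraries, after the mean of each gonad type was taken off, fkbp5 and ddit4 had a Pearson correlation of 0.934, fkbp5 and klf9 one of 0.87, and klf9 and dusp1 one of 0.814. The lowest among the 4 response genes was 0.662, for fkbp5 and dusp1. The receptor nr3c1 had 0.696 with fkbp5, 0.715 with ddit4, 0.739 with klf9 and 0.652 with dusp1. For nr3c2 the values with these genes ran from -0.643 to -0.26. The points share their groups and library scaling, so these values describe the libraries and carry no test. By the same measure among 12190 candidate genes, the closest named genes to fkbp5 were LOC119901857 (0.964), clic4 (0.957), a chloride intracellular channel gene, and pid1 (0.952). For ddit4 they were zgc_162730 (0.985), LOC119915566 (0.963) and LOC119885631 (0.955).

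For klf9 the closest was sik1 (0.965), which encodes a salt-inducible kinase, ahead of LOC119919296 (0.939) and LOC119895269 (0.938). Mean sik1 was 0.057 FPKM in IC-M, 0.527 in NC-F and 2.14 in HT-M, and mean LOC119895269 was 0.54, 0.503 and 9.56. Both needed HT-M to pass the ovary-type filter, and klf9 was also highest there among ovary-type groups. Part of their likeness to klf9 thus follows from the filter. For dusp1 the closest were csrnp1b (0.97), an immediate early nuclear protein gene, emc4 (0.966) and si_ch211-39i2.2 (0.966). The gene emc4 encodes a subunit of the endoplasmic reticulum membrane insertion complex. The receptors had looser neighbours. The closest to nr3c1 was gadd45ab (0.861), a growth arrest and DNA damage gene, then LOC119906302 (0.849) and LOC119886340 (0.823). For nr3c2 they were bmpr1ba (0.925), a bone morphogenetic protein receptor, zgc_101765 (0.923) and LOC119888181 (0.907). The nr3c2 values rest on levels of 0.16 to 0.51 FPKM, near the lower end of detection.

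The supply side of the pathway could be followed only in part. Of 19 genes for corticosteroid synthesis, 5 were measured under the names searched. Among them star, which brings cholesterol into the mitochondrion, stood at 1.97 ± 0.232 FPKM in HT-M and 0.593 ± 0.204 in NC-F (SD, n = 3), with no test because it passed the filter only through HT-M. It stood at 31.3 FPKM in HT-F and 21.1 in NC-M. The receptor for the pituitary hormone ACTH, mc2r, was listed at 0 in all ovary-type libraries and reached at most 0.11 FPKM in testis-type libraries. In HT-M against NC-F 2 of the 4 synthesis genes tested, with star among the 4, were called higher and 0 lower. Over all genes the shares there were 28.7% and 20.0%. With a filter at 5 FPKM 0 were higher. In NC-M against IC-F 1 of 4 was lower, fdxr (-1.06 to -0.81 under alternatives), beside 18.1% of all genes. In HT-F against NC-M limma called 0 of the 4 synthesis genes tested, beside 6.17% higher and 4.50% lower over all genes. Of the 4, 0 had an unadjusted p under 0.05, but 3 were called higher without NC-M 3.

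Enzymes that inactivate or convert cortisol were led by hsd20b2, which in zebrafish turns cortisone into an excreted form. In ovary-type libraries it fell to 0.253 ± 0.0586 FPKM in HT-M from 2.65 ± 0.6 in NC-F (log2 difference -1.53, adjusted p = 0.000135) and from 2.63 in IC-M (-1.53, adjusted p = 0.000128). In testis-type libraries it was higher in HT-F, at 4.75 ± 0.639 FPKM, than in IC-F, at 0.8 ± 0.165, again with no test because it passed the filter only through HT-F. The classic inactivating enzyme hsd11b2 did not exceed 1.02 FPKM in any library.

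Chaperones and immunophilins hold the receptors ready for hormone. In HT-M against NC-F 7 of 15 tested were lower and 2 higher, beside 20.0% and 28.7% of all genes. In the fit of all 18 libraries 2 were lower and 0 higher. The co-chaperone stip1 fell from 76.7 ± 3.78 to 54.4 ± 3.14 FPKM (log2 difference -0.49, adjusted p = 0.00194) and hsp90aa1.2 from 50.7 ± 1.4 to 35.4 ± 3.93 (-0.51, adjusted p = 0.00281, but 0.427 in the fit of all 18 libraries). In HT-F against NC-M all 5 called genes of 16 tested were higher, beside 6.17% higher and 4.50% lower over all genes. They included stip1 (0.75, adjusted p = 0.0282) and the immunophilin fkbp4 (0.65, adjusted p = 0.0323). These 5 calls all went without HT-F 2 and without HT-F 3, and those of stip1 and fkbp4 held with 1 library of the groups left out only without NC-M 3. Over the 28 days at 20 °C, 3 of 15 rose and 1 fell in ovary-type libraries, beside 11.9% and 13.6% of all genes. In testis-type libraries 5 of 16 fell, beside 18.1% of all genes, and 0 fell without NC-M 2. Whether the gonad types differ was not tested for the chaperones and immunophilins. Receptor coregulators had 8 of 14 tested higher and 1 lower in HT-M against NC-F, beside 28.7% and 20.0% of all genes. In this list nrip1b, a corepressor that passed the filter only through HT-M, stood at 2.55 against 0.99 FPKM. In HT-M against IC-M 2 of 14 coregulators were higher and 1 lower, beside 16.1% and 8.44% of all genes. In NC-F against IC-M 0 were higher and 5 lower, beside 11.9% and 13.6%. In HT-F against NC-M 0 of 14 were higher and 2 lower, beside 6.17% and 4.50%.

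Other genes known as corticosteroid-induced, mostly from mammals, numbered 50, of which 34 were measured. In HT-M against NC-F 8 of 23 tested were higher and 5 lower, near the 28.7% and 20.0% of all genes. The median log2 difference was 0.32 beside 0.07 over all genes. The count of higher genes was 2 in the fit of all 18 libraries. The rises included txnipa, a thioredoxin inhibitor, from 23.6 ± 1.17 to 56.2 ± 9.32 FPKM (1.21, adjusted p = 0.000206) and fbxo32, a ubiquitin ligase of muscle wasting, from 54 to 78.8 FPKM (0.54, adjusted p = 0.00135, but 0.122 in the fit of all 18 libraries). The falls included nfkbiab, an NF-kB inhibitor (-0.56, adjusted p = 0.000424), and the cell cycle inhibitor cdkn1a (-0.79, adjusted p = 0.00184). Against day 0 all 10 called genes of 23 were higher in HT-M, beside 16.1% higher and 8.44% lower over all genes. They were led by txnipa (2.08, adjusted p = 8.61e-06) and the transcription factor cebpb (1.80, adjusted p = 2.54e-05).

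In testis-type libraries 11 of 27 of these genes were higher and 1 lower in HT-F against IC-F, and 6 were higher without HT-F 2. Over all genes 14.8% were called higher and 9.04% lower. The list median was 0.89 beside 0.10 over all genes. The glucocorticoid-induced leucine zipper gene tsc22d3 rose from 15.8 ± 1.15 to 72 ± 24 FPKM (2.06, adjusted p = 0.00397) and txnipa from 147.2 to 372.4 FPKM (1.30, adjusted p = 0.00394), while the zinc finger gene zbtb16b fell (-1.46, adjusted p = 0.00731). In HT-F against NC-M all 6 called genes of 27 were higher, beside 6.17% higher and 4.50% lower over all genes. Among them cebpd stood at 87.8 ± 27.1 against 24.4 ± 4.22 FPKM (1.77, adjusted p = 0.0127). The count of 6 was 0 without HT-F 2, 0 without HT-F 3 and 19 without HT-F 1 and NC-M 3 together. At an unadjusted p under 0.05 it was 12 higher and 1 lower.

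Over 28 days at 20 °C the same list had 9 of 23 tested higher and 2 lower in ovary-type libraries, beside 11.9% and 13.6% of all genes. The cystine transporter slc7a11 rose from 0.42 ± 0.139 to 3.38 ± 0.381 FPKM (1.63, adjusted p = 0.000101) and cebpb by 1.27 (adjusted p = 0.000256), while the serum and glucocorticoid regulated kinase sgk1 fell from 87.4 ± 28.7 to 43.1 ± 5.56 FPKM (-0.96, adjusted p = 0.0152). The sgk1 call was lost without NC-F 3. In testis-type libraries 4 of 27 rose, 0 of them without NC-M 1, and 3 fell, beside 16.4% and 18.1% of all genes. Among those that fell were zbtb16b (-1.84, adjusted p = 0.00288) and klf15 (-1.27, adjusted p = 0.0103).

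Immediate early genes, which answer signals within minutes, were higher in 8 of 15 tested and lower in 1 in HT-F against NC-M. Over all genes 6.17% were called higher and 4.50% lower. The list median was 1.16 beside 0.09 over all genes. The AP-1 subunit jun rose from 4.36 ± 0.95 to 23.2 ± 6.51 FPKM (2.15, adjusted p = 0.00632) and kept its call under every alternative run, and csrnp1b rose by 2.52 (adjusted p = 0.00775) and lost its call without HT-F 2. The early growth response gene egr1 was lower (-1.06, adjusted p = 0.0438), a call lost in 7 of 14 alternatives, 5 of them with 1 library left out (adjusted p up to 0.132). Without HT-F 2 the count of higher genes was 1 and without HT-F 3 it was 2. Against day 0 HT-F had 6 of 15 higher and 3 lower, beside 14.8% and 9.04% of all genes. The gene egr1 stood at 1.16 ± 0.2 against 11.7 ± 0.739 FPKM (-2.56, adjusted p = 0.00108).

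In ovary-type libraries 5 of 13 immediate early genes were higher and 2 lower in HT-M against NC-F, beside 28.7% and 20.0% of all genes. Against day 0, 6 of 13 were higher, beside 16.1% of all genes. The orphan receptor gene nr4a1 rose from 0.447 ± 0.125 to 2.32 ± 0.704 FPKM (1.18, adjusted p = 0.00167). Among the other dual-specificity phosphatases, relatives of dusp1, dusp5 stood at 3.11 FPKM in HT-M and 1.03 in NC-F, with no test because it passed the filter only through HT-M, and it rose in HT-F (1.67 against IC-F, adjusted p = 0.00206; 1.57 against NC-M, adjusted p = 0.0106). The last call was lost without HT-F 2 or HT-F 3. By contrast dusp6 rose in HT-M (1.1 against NC-F, adjusted p = 0.00024) and fell in HT-F (-1.17 against IC-F, adjusted p = 0.00923). These baselines differ. Under alternatives HT-F against NC-M was -1.29 to -0.91, with the call lost in 5 of 14. In ovary-type libraries dusp6 also fell at 20 °C, by -0.74 to -0.48 in NC-F against IC-M, with the call lost in 1 of 13. Over the list 2 of 12 were higher and 5 lower in HT-M against NC-F, beside 28.7% and 20.0% of all genes. In HT-F against IC-F 5 of 14 were higher and 1 lower, beside 14.8% and 9.04%, with 1 higher without HT-F 2.

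The other Kruppel-like factors are relatives of klf9. In HT-M against NC-F all 5 called genes of 8 tested were higher, among them klf13, from 3.57 ± 0.296 to 6.93 ± 0.385 FPKM (0.80, adjusted p = 0.000561), and the list median was 0.78 beside 0.07 over all genes. Over all genes 28.7% were called higher and 20.0% lower there. In HT-F against IC-F 1 was higher and 1 lower, beside 14.8% and 9.04% of all genes. Over 28 days at 20 °C all called genes of the list were lower, 3 of 8 in ovary-type and 4 of 8 in testis-type libraries. Over all genes 13.6% and 18.1% were called lower. Examples were klf4 in NC-F (-0.76, adjusted p = 0.00126, but 0.225 in the fit of all 18 libraries) and klf8 in NC-M (-1.24, adjusted p = 0.00249).

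For the remaining lists the counts stand beside 28.7% of all genes higher and 20.0% lower in HT-M against NC-F and 14.8% and 9.04% in HT-F against IC-F. The other FK506-binding proteins gave 4 of 16 higher and 6 lower in HT-M against NC-F and 7 of 16, all higher, in HT-F against IC-F. The last count was 2 without IC-F 1. In HT-F against NC-M 3 of 16 were higher and 1 lower, beside 6.17% and 4.50% of all genes. At 20 °C, NC-M against IC-F had 5 of 16 higher and 2 lower, beside 16.4% and 18.1% of all genes. The gene fkbp6, which acts in germ cells of mammals, fell in HT-M (-1.80 against NC-F, adjusted p = 0.000533) and rose in HT-F (1.73 against IC-F, adjusted p = 0.00308). These baselines differ. Under alternatives NC-F against IC-M was 0.82 to 1.31, with no call lost. HT-M against IC-M was -0.97 to -0.49, with the call lost in 9 of 13. HT-F against NC-M was 1.11 to 1.59, with the call lost in 3 of 14. For the mTOR pathway, which ddit4 restrains, 10 of 28 were higher and 4 lower in HT-M against NC-F, shares near those over all genes, with prkaa2, a catalytic subunit of the energy sensor AMPK, at 3.21 against 1.31 FPKM (0.86, adjusted p = 0.000737). In HT-F against IC-F 6 of 29 were higher, 0 of them without IC-F 2, and 3 lower. In HT-F against NC-M 2 of 29 were higher and 1 lower, and in NC-M against IC-F 10 of 29 were higher and 6 lower.

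Genes of other signals that raise ddit4 were also followed, and in HT-M against NC-F their shares again lay near the 28.7% higher and 20.0% lower of all genes. Of the hypoxia genes, 5 of 15 were higher and 3 lower there and 6 of 15, all higher, in HT-F against IC-F, which was 3 without IC-F 2. In HT-F against NC-M 2 of 15 were higher and 0 lower, beside 6.17% and 4.50% of all genes. In NC-M against IC-F 3 of 15 were higher and 2 lower, beside 16.4% and 18.1% of all genes. The gene hif1al, in zebrafish an alpha subunit gene of the hypoxia-inducible factors, rose from 6.26 ± 0.946 to 15.5 ± 0.664 FPKM in HT-M (1.2, adjusted p = 0.000188) and from 11.7 ± 0.763 to 76.2 ± 25.9 FPKM in HT-F against day 0 (2.55, adjusted p = 0.00155). Of the amino acid and endoplasmic reticulum stress genes, 7 of 25 were higher and 6 lower in HT-M against NC-F, and 7 of 26 higher and 1 lower in HT-F against IC-F, with 2 lower without NC-F 3 in the first and 2 higher without IC-F 2 in the second. In HT-F against NC-M 4 of 26 were higher and 0 lower, and in NC-M against IC-F 4 were higher and 7 lower. For MAP kinases, the substrates of dusp1 and their activators, 5 of 17 were higher and 5 lower in HT-M against NC-F, and 1 was lower without HT-M 2. In HT-M against IC-M limma called 0 of these 17, with 2 higher and 1 lower at an unadjusted p under 0.05. Over all genes 16.1% were called higher and 8.44% lower there. In HT-F against IC-F 3 of 21 MAP kinase genes were higher and 5 lower, beside 14.8% and 9.04% of all genes, with 0 lower without HT-F 2. In HT-F against NC-M 1 of 21 was higher and 0 lower, and in NC-M against IC-F 3 were higher and 6 lower.

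**Figure D4:**
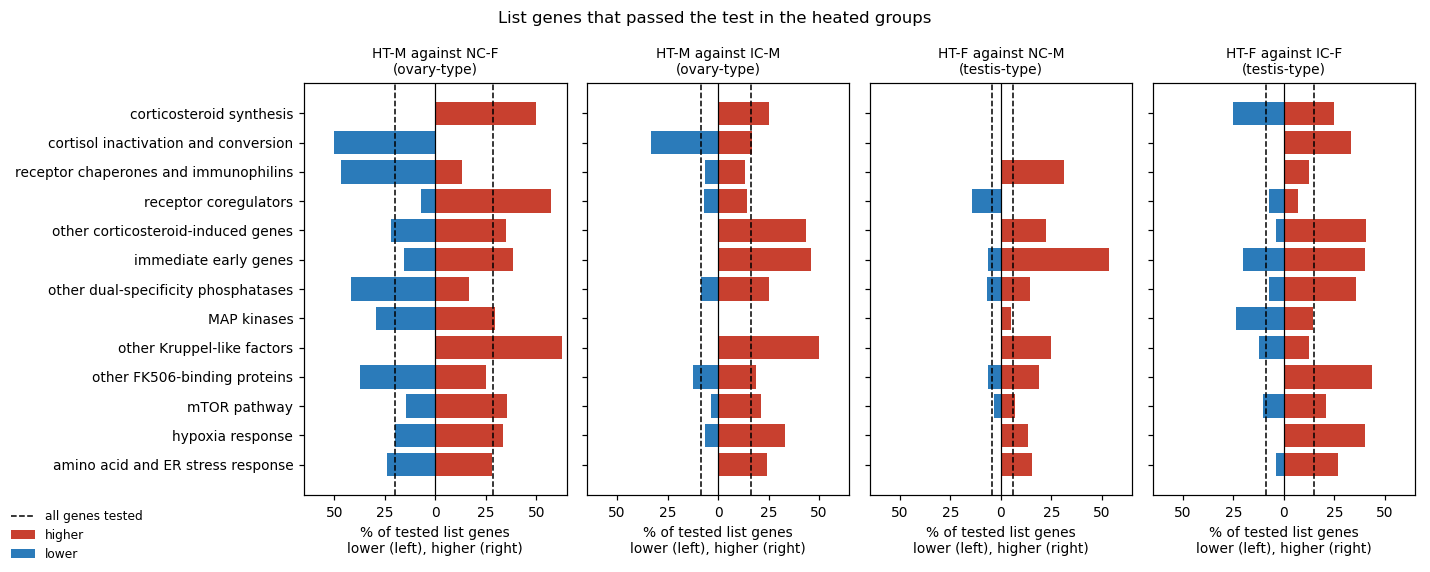
Share of the tested genes of each list that was called higher (red, right) or lower (blue, left) in the 4 comparisons of heated groups, in percent. Those with day 0 differ by 28 days as well as by heat. Dashed lines give the same shares over all genes tested, 28.7% and 20.0% in HT-M against NC-F and 6.17% and 4.50% in HT-F against NC-M. Immediate early genes have 8 of 15 higher in HT-F against NC-M.

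Sums of several cell type marker lists were higher in HT-M than in NC-F. Endothelium markers (16 of 21 measured) summed to 22.7 to 26.9 FPKM in NC-F and 50.6 to 60.6 in HT-M, granulosa and theca markers (12 of 16) to 79.4 to 116.1 and 180.4 to 190.5, macrophage and myeloid markers (13 of 23) to 56.3 to 62.2 and 97.5 to 130.6, and red blood cell markers (9 of 15) to 33 to 96.9 and 276 to 301.9. None of these groups of sums overlapped. For macrophage and myeloid markers 3 of 7 tested were called higher and 1 lower, with a median log2 difference of 0.16 beside 0.07 over all genes. Oocyte marker sums were lower, at 9798 to 11280 FPKM in NC-F and 8941 to 9472 in HT-M. Of these markers 5 of 12 were called lower and 1 higher, beside 20.0% and 28.7% of all genes. In testis-type libraries the endothelium sums were 87.5 to 117.7 FPKM in NC-M and 110.5 to 132.8 in HT-F, which overlapped. The macrophage, granulosa and theca, sperm and red blood cell sums overlapped too. The sperm overlap came from NC-M 3 alone. Sperm and flagellum sums were 1509, 1493 and 2800 FPKM in NC-M and 3079, 2639 and 2444 in HT-F. Their median log2 difference was 1.25 beside 0.09 over all genes. Of 26 tested, 1 was called higher and 1 lower, with 14 and 2 at an unadjusted p under 0.05. The granulosa and theca overlap also came from NC-M 3 alone, with the other NC-M libraries above HT-F. Sertoli and Leydig sums did not overlap, at 223 to 242.9 FPKM in NC-M and 250.6 to 347.6 in HT-F, nor did the mitochondrial share of FPKM, at 12.8% to 17.9% in NC-M and 1.48% to 2.05% in HT-F. No measured endothelium, granulosa and theca, macrophage and myeloid or red blood cell marker was at 0 in a whole group, except the red blood cell gene nt5c2l1 in IC-M. Against day 0, granulosa and theca sums were 58.4 to 71.0 FPKM in IC-M and 180.4 to 190.5 in HT-M, with 9 of 10 tested called higher. Of endothelium markers 6 of 7 were higher and 1 lower there, and of macrophage and myeloid markers 5 of 7 and 1. Over all genes 16.1% were higher and 8.44% lower. Sperm and flagellum sums were 5386 to 5540 FPKM in IC-F and 2444 to 3079 in HT-F, with 4 of 26 called lower and 0 higher, beside 9.04% and 14.8% of all genes. The part of these cells in the levels of the 6 genes was not tested.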

How the data were processed

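The authors deposited FPKM with 2 decimals for 43106 genes in 18 libraries, per the file headers, from 0.4 ug of total RNA each, per the labels. How reads were aligned and counted, and on which build, is not given in the sources used here. Depth is unknown, and no sequence or coordinate is printed. Since the labels do not tie the 3 libraries of a group to separate fish, pools or tanks, a p-value covers only their own, possibly technical, spread. Differences were tested on log2(FPKM + 1) with limma 3.58.1 (R 4.3.3). This scale understates changes of low genes. Fits used lmFit and eBayes with trend, on genes with at least 1 FPKM in at least 3 libraries fitted. The SE of a log2 difference is the moderated value of the fit. It draws on every library fitted and on other genes, not only on the groups compared. The 9 libraries of one gonad type were fitted together, and all 18 for contrasts between types. P-values were adjusted by Benjamini-Hochberg over all genes tested and called under 0.05. The fit was tried on simulated data for HT-M against NC-F only, with changes set in genes above about 5 FPKM. The other comparisons were not simulated. Tests had been set for the 6 genes between types and over 28 days at 20 °C, but their p-values are not given, since the libraries compared also chose the genes. Nor are they given for listed genes named in the text that passed the filter only through the higher group. Tables and figures used Python 3.11.15, pandas 2.3.3 and matplotlib 3.10.9.

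The 6 genes, the comparison by gonad type and the 20 gene lists were chosen with earlier results of these data known. For each list and comparison the rule for named genes took up to 2 genes higher and 2 lower with the smallest adjusted p; genes named for their level alone were chosen after their values were seen. Closest genes were ranked among named genes tested in both fits with a mean of at least 5 FPKM in 1 gonad type.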

Additional observations from a re-analysis of the deposited data

Results flagged for a closer look

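The interaction term of the 18-library limma fit sets the change over 28 days at 20 °C side by side between the gonad types. On the log2 scale it is the testis-type change (NC-M minus IC-F) less the ovary-type change (NC-F minus IC-M). It was -2.19 ± 0.438 (SE) for fkbp5, -2.97 ± 0.659 for ddit4, -1.83 ± 0.482 for klf9 and -0.35 ± 0.511 for dusp1. These libraries also served as the unheated groups of the comparisons that chose the genes, so the values are a description and no p is given. Within the ovary-type libraries fkbp5 and ddit4 were higher in all 3 NC-F than in all 3 IC-M, and within the testis-type libraries klf9 was lower in all 3 NC-M than in all 3 IC-F. The share of mitochondrial transcripts was 8.38% to 10.1% in IC-F and 12.8% to 17.9% in NC-M, and sperm and flagellum markers summed to 5386 to 5540 FPKM and to 1493 to 2800. Their part in these differences was not tested.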

How the results depend on the processing

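The numbers of genes called depended on single libraries and on the fit. HT-F against NC-M gave 2432 calls, but 1141 without a filter, 129 with the replicate block, 8568 in the fit of all 18 libraries, 10876 without HT-F 1 and NC-M 3 (chosen after seeing the data), and from 62 (without HT-F 3) to 10693 (without NC-M 3) with 1 library left out. HT-F against IC-F gave 5438, and 3390 with the replicate block, 8941 with all 18 libraries and 1815 to 5263 with 1 left out. HT-M against IC-M gave 4179, 2463 with a filter at 5 FPKM and 2566 to 5709 with 1 left out. NC-F against IC-M gave 4345, 2815 with all 18 libraries and 2262 to 4393 with 1 left out. The ranges with 1 left out were 6242 to 7507 (main 8299) for HT-M against NC-F, 3787 to 12149 (7869) for NC-M against IC-F, 18379 to 18832 (19620), 18222 to 19318 (19327) and 17459 to 17830 (18637) for testis-type against ovary-type at day 0, 20 °C and 28 °C, and 7288 to 12488 (8919) for the difference between types.

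Replicate numbers paired no samples: 1 of 18 same-number correlations of deviations exceeded 0.1 (range -0.243 to 0.242), so the replicate block is given here only. Median-of-ratios scaling lowered the share of calls that were higher from 58.9% to 48% in HT-M against NC-F, 65.6% to 46.8% against IC-M, 62.1% to 46.2% in HT-F against IC-F and 47.5% to 36.3% in NC-M against IC-F, and the all-gene median between types from 0.57 to 0.37 at day 0. Signs turned for nr3c1 in HT-F against IC-F (-0.0033 with that scaling) and ddit4 in NC-M against IC-F (-0.80 to 0.23 with 1 library left out, 0.15 without NC-M 1) and NC-M against NC-F (-0.090 to 0.94 with 1 left out, the lowest without NC-M 3). The causes were not tested. A pseudocount of 0.1 raised HT-M against IC-M to 5.23 for ddit4 and 4.16 for fkbp5. Of 2623 values of named list genes under alternatives, 2193 kept the call, 430 lost it and none changed sign.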
